A study of Mus musculus with 2 samples.

Results

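High level CpG cytosines were defined as autosomal CpG cytosines read at least 10 times in both liver libraries whose pooled methylation level, methylated reads over all reads of both libraries, was at least 60% and under 90%. There were 272325 of them, lying in 243649 CpGs, among 1603296 cytosines tested, which is 17.0% of the total. The pooled level chose the members, so their level is a description and not a finding. It does not fix which library is higher, because libraries with equal levels would differ by 0 on average whatever the pooled count. Every difference below is fasted minus control, in percentage points of methylation.

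DNA was taken from the liver of 12-week-old CD-1 mice, an outbred stock. The fasted mice had gone 12 hr without food and the control mice were untreated. Each group had 1 library, for which the number of mice is not stated in the labels. Reduced representation bisulfite sequencing reads fragments between restriction sites that contain a CpG, and an unmethylated cytosine is read as a converted base. The 19 autosomes were used, with coordinates in mm10. With no replicate library, no spread between animals could be estimated, intervals are 95% intervals for counting error, and tests on reads compare these libraries, not the conditions. Neighbouring cytosines are read on the same molecules, so the intervals are narrower than they should be.

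Methyl groups are placed on cytosines of CpG pairs by DNMT enzymes, kept through cell division because both strands carry the mark, and removed by dilution or through oxidation by TET enzymes. In mammalian tissues most CpGs far from promoters are methylated, whereas CpG-rich promoters are mostly unmethylated. A level between the extremes in bulk tissue means that some molecules carried the mark and others did not. Cell types, alleles and single molecules could not be told apart in these read counts. The liver label could be checked only weakly: gene ends held tested cytosines for 2 of 8 hepatocyte, 1 of 4 endothelial, 1 of 3 Kupffer cell, 3 of 3 stellate cell, 1 of 3 cholangiocyte, 0 of 3 leukocyte and 1 of 2 muscle markers, and methylation at a gene end does not measure expression.

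Members were rare at promoters. Of 12276 RefSeq promoter windows (assembly GRCm38.p6, 250 bases before to 50 after the annotated start) with a tested cytosine, 854 held a member, or 6.96%. In the sequence of these 854 windows the median number of CpG pairs was 7, against 23 over all tested windows and 25 in tested windows below 10% in both libraries. The enzyme sites CCGG or TCGA, both palindromic and not overlapping each other, occurred in 99.6% of the windows with a member and in 61.03% of all 31396 autosomal windows of the table. Only fragments between such sites are read, and 12276 of the 31396 windows held a tested cytosine. This contrast therefore describes the method and not the members. The bases before the start of 4 genes are shown because they differ from this picture in holding many members. Capitals mark member cytosines, as C where the member is on the printed strand and as G where it is on the other strand. Ddx4, a germ cell RNA helicase, is on the minus strand (mm10 chr13:112652311-112652560), as is Dmrtb1, a transcription factor of the testis (chr4:107683590-107683839). Il12a, a subunit of the cytokine interleukin 12 (chr3:68691174-68691423), and Tmem267, a transmembrane protein gene (chr13:119488223-119488472), are on the plus strand.
Ddx4: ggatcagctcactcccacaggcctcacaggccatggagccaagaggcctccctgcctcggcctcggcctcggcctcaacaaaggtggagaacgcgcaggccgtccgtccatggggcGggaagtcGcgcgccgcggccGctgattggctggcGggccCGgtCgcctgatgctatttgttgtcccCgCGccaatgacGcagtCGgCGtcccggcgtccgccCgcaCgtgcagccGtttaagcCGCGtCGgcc
Dmrtb1: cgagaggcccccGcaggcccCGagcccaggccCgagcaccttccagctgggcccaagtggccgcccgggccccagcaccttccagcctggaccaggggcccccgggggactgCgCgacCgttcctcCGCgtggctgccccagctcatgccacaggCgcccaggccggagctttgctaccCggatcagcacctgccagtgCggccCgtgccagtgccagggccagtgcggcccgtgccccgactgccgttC
Il12a: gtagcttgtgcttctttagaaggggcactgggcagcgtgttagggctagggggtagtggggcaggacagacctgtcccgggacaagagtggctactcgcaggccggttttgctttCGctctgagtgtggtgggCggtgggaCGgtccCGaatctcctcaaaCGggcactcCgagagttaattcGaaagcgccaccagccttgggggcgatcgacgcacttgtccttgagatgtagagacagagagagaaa
Tmem267: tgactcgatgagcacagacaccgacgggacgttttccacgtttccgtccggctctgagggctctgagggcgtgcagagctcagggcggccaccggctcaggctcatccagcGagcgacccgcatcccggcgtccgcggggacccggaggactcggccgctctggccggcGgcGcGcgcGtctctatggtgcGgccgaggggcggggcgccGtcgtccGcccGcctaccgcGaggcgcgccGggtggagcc

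The Ddx4 stretch held 24 members among 34 tested cytosines. They averaged 69.2% in the fasted library (lowest 45.5%, highest 100%) and 80.3% in the control library (lowest 50%, highest 100%), and 17 of the 24 were lower in the fasted library. The 15 members before Dmrtb1 averaged 79.4% in the fasted and 80.1% in the control library, with 7 higher and 8 lower. At Il12a the 11 members averaged 86.4% in the fasted and 71.2% in the control library, with 7 higher and 2 lower. All 11 members before Tmem267 were higher in the fasted library, at 71.8% against 54.0% in the control library. Depth there ran from 80 to 166 reads in the fasted and from 64 to 125 reads in the control library, against member medians of 16 fasted and 15 control reads. None of the members in these 4 stretches was called as different by itself. The levels of fasted and control cytosines overlapped at Ddx4, Dmrtb1, Il12a and Tmem267.

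The members lay inside genes less often than tested cytosines as a whole. Inside annotated genes, from start to end, were 160408 members, or 58.9%, against 74.0% of all tested cytosines, and 111917 members, or 41.1%, lay between genes. Protein-coding genes held 49.8% of the members and 67.5% of all tested cytosines. Windows at gene ends held 8.05% of the members, against 38.1% of all tested cytosines and 62.6% of cytosines below 10%. Promoter windows held 1778 members, 0.653% of the members, against 11.6% of all tested cytosines. On chromosomes with promoter windows in the table, the median distance to an annotated start was 25904 bp for members, 25561 bp for cytosines of at least 90% and 377 bp for cytosines below 10%. By distance to starts and share at gene ends, the members thus lay close to the class of at least 90%. Members made up 14.6% (chromosome 11) to 18.4% (chromosome 16) of the tested cytosines of an autosome.

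CpG spacing around members was wide. The nearest other CpG listed in either library was a median of 21 bp away (quartiles 10 and 43 bp), against 5 bp for cytosines below 10%, 14 bp for those of at least 90% and 8 bp for all tested cytosines. The cytosines of 40 to 60% had a median of 23 bp. Within 100 bp a member had a median of 2 other listed CpGs, against 13 for cytosines below 10%, 3 for those of at least 90% and 7 for all tested cytosines. No listed CpG lay within 100 bp for 10.6% of the members. At the other end, 2.33% of the members had 11 or more listed CpGs within 100 bp, whereas 65.7% of the cytosines below 10% did. These distances count CpGs that were read, so CpGs outside the sequenced fragments are missing from them.

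**Figure D1:**
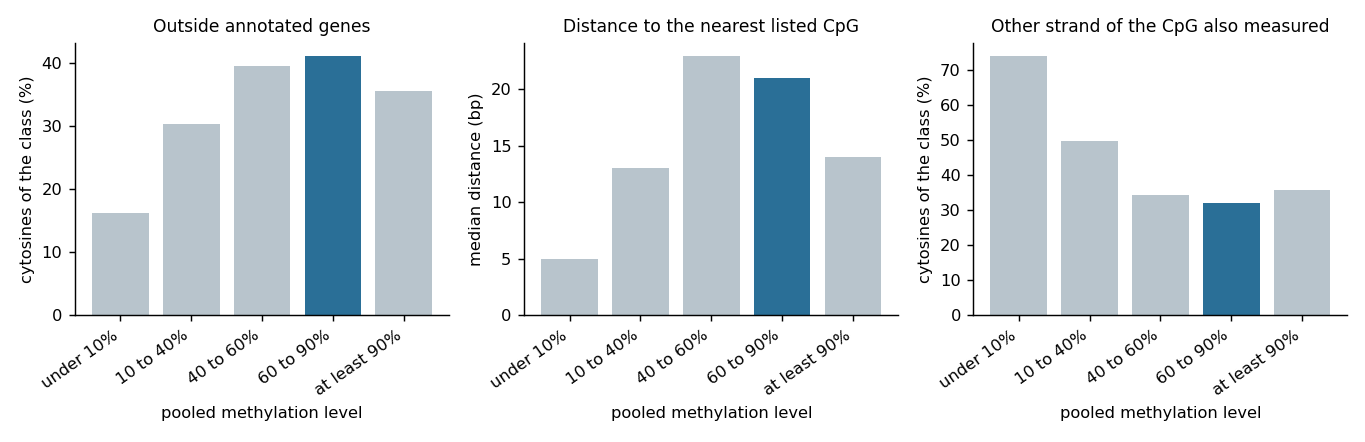
Share of cytosines outside annotated genes (%), median distance to the nearest listed CpG (bp) and share whose other strand was also tested (%), for 5 classes of pooled methylation level, with the class of 60 to 90% in blue. This class had the largest share outside genes of the 5, 41.1%, a median spacing of 21 bp and the smallest share with a tested strand partner, 31.9%.

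Coverage of members was modest. The median was 16 reads in the fasted library (quartiles 13 and 21) and 15 reads in the control library (quartiles 12 and 20), against 19 fasted and 18 control reads over all tested cytosines. At least 20 reads in both libraries covered 16.9% of the members. Summed over members, the fasted library had 5037517 reads and the control library 4848500, a ratio of 1.04. With a median of 32 pooled reads, the exact Clopper-Pearson interval of a member's level was a median of 29.4 points wide. It lay wholly within 60 to 90% for 15373 members, or 5.65%, reached 90% or more for 60.2% and reached below 60% for 42.6%. Taken alone, both the fasted and the control level were within 60 to 90% for 51.3% of the members. Members just inside the lower limit, at 60 to 61%, numbered 6186 and averaged 60.9% in the fasted and 60.0% in the control library, and the 2987 cytosines just outside it averaged 59.9% in the fasted and 58.9% in the control library. Just inside the upper limit, at 89 to 90%, 13124 members averaged 89.6% in the fasted and 89.3% in the control library, and the 25537 cytosines just outside averaged 90.7% in the fasted and 90.2% in the control library.

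The other strand of the same CpG, its strand partner, was also tested for 86811 members, or 31.9%, against 56.4% of all tested cytosines. The partner was itself at 60 to 90% in 66.1% of these cases and at 90% or more in 25.4%. It was at 40 to 60% in 7.76%, at 10 to 40% in 0.715% and below 10% in 0.0484%. Opposite strands of a CpG were thus rarely at opposite ends of the scale in these pooled reads. A member and its partner differed by a median of 7.22 points, and 6.28% of the pairs were more than 20 points apart. Pearson's r between the pooled levels of member and partner was 0.577 over the 86811 members. This describes CpGs of the same 2 libraries and includes the counting error of both strands.

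The nearest tested CpG on the same strand within 50 bp, which was present for 64.4% of the members, showed a similar mixture. It was at 60 to 90% for 53.0%, at 90% or more for 34.4%, at 40 to 60% for 8.27%, at 10 to 40% for 3.396% and below 10% for 0.886%. Where such a neighbour was tested, it was mostly methylated and seldom below 10%, while CpGs farther away were not examined. For cytosines of at least 90% the neighbour was below 10% for 0.590% and at 10 to 40% for 0.732%. The fasted minus control differences of member and neighbour had an r of 0.272 over 175361 pairs, and those of member and strand partner an r of 0.153. Neighbours on 1 strand share reads and strand partners do not, so the first value includes shared sampling.

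Over all members the mean level was 78.9% in the fasted library and 78.1% in the control library, a difference of 0.812 points (0.756 to 0.867). The fasted library was higher at 138971 members and lower at 127949. Single members scattered far more widely, with an SD of 16.7 points between cytosines, and the median difference was 0.851 points. This SD includes the counting error of each cytosine. It was 7.47 points in the 271 members with 100 or more reads in both libraries. The mean difference exceeded that of cytosines of at least 90% by 0.653 points (0.588 to 0.718) and that of cytosines of 40 to 60% by 0.769 points (0.623 to 0.915). These classes are not matched on the room a level leaves for a difference. The SD of differences was 7.75 points at 90% or more and 22.1 points at 40 to 60%. Cytosines below 10% differed by -0.0037 points, and those of 10 to 40% by -1.22 points. Over all tested cytosines the difference was 0.0808 points (0.0654 to 0.0962).

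Members between genes differed more than members inside genes. Inside genes they averaged 78.8% in the fasted and 78.2% in the control library, a difference of 0.603 points (0.530 to 0.675). Between genes they averaged 79.0% in the fasted and 77.9% in the control library, a difference of 1.11 points (1.02 to 1.20). The inside minus between value was -0.509 points (-0.622 to -0.395). In cytosines of at least 90% the same value was -0.111 points (-0.180 to -0.0413), and in those of 40 to 60% it was -0.938 points (-1.21 to -0.661). The order was the same in each of 6 level bins of 5 points. The smallest inside value was 0.349 points, at 60 to 65%, and the largest between value was 1.36 points, at 70 to 75%.

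**Figure D2:**
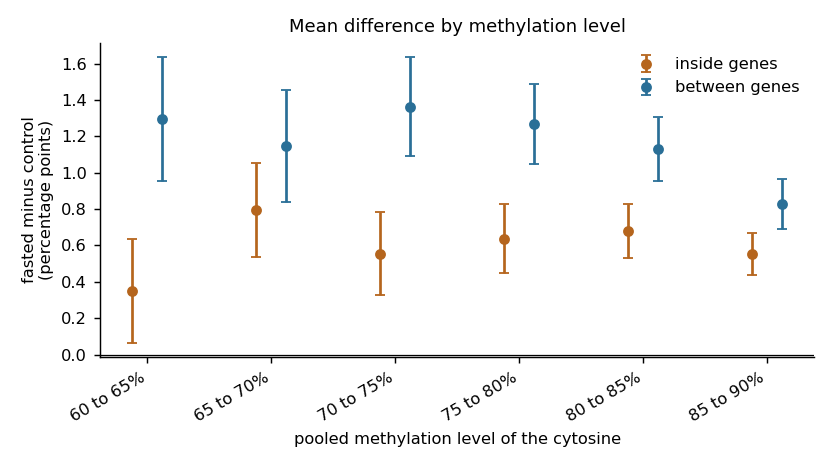
Mean fasted minus control difference (percentage points) of high level CpG cytosines in bins of 5 points of pooled level, inside and between genes, with 95% counting intervals. Both values are above 0 in all 6 bins, and the value between genes is the higher one in each.

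The strand partner was read apart from the counts that chose its member. It is not separate evidence, because 66.1% of these partners were themselves members, whose differences also enter the mean over members. When the class was read on 1 strand and the difference on its partner, partners averaged 80.1% in the fasted and 79.4% in the control library, a difference of 0.688 points (0.598 to 0.778). Inside genes the partner difference was 0.566 points (0.451 to 0.681), and between genes it was 0.885 points (0.740 to 1.03). Only 53.5% of the partners had the same sign of difference as their member. Splits of the members' own levels, which the pooled level did use, gave 0.828 points on the plus and 0.796 points on the minus strand. Members read more deeply in the fasted library differed by 0.644 points, those read more deeply in the control library by 0.998 points and those of equal depth by 0.922 points.

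The sign held on every autosome, while the order of inside and between held on most. All 19 autosomes had a positive mean difference, the lowest on chromosome 11 at 0.470 points and the highest on chromosome 12 at 1.34 points. Inside genes all 19 were positive, with chromosome 18 the lowest at 0.383 points and chromosome 2 the highest at 1.05 points. Between genes all 19 were positive, with chromosome 15 the lowest at 0.447 points and chromosome 12 the highest at 1.97 points. The value between genes was the larger on 18 of the 19, with chromosome 15 as the exception, at 0.497 points inside and 0.447 points between genes. Intervals of the inside and between values overlapped on many of the autosomes.

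**Figure D3:**
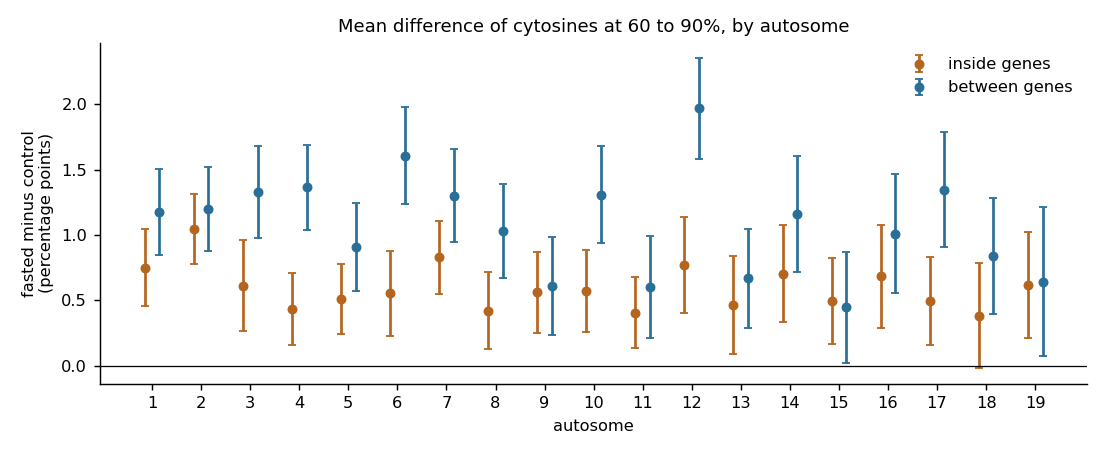
Mean fasted minus control difference (percentage points) of high level CpG cytosines on each of the 19 autosomes, inside and between genes, with 95% counting intervals. All points are above 0, and chromosome 12 has the highest value between genes, 1.97 points.

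The order of inside and between did not hold at the few deeply read members. At a smaller depth of 10 to 14 reads, the inside difference was 0.598 points and the between difference 1.10 points, and at 30 to 49 reads these were 1.00 and 1.19 points. In the 723 members with 50 to 99 reads the order was the other way round, at 1.65 points inside (0.835 to 2.47) and 0.144 points between genes (-0.534 to 0.823). In the 271 members with 100 or more reads it was again 1.53 points inside and 0.193 points between genes. The 1000 bp window at Tmem267 held 52 members, read 60 to 236 times in the fasted and 26 to 151 times in the control library. They averaged 14.3 points higher in the fasted library. Many of them lay inside the gene and in these deep bins, and the order without this window was not computed.

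The difference was larger farther from genes. Members between genes and less than 1000 bp from a gene end averaged 77.9% in the fasted and 77.3% in the control library, 0.539 points apart (0.196 to 0.882). From 1000 to under 5000 bp the difference was 0.565 points, from 5000 to under 20000 bp 1.07 points and from 20000 to under 100000 bp 1.33 points. The 8983 members at 100000 bp or more averaged 80.1% in the fasted and 78.0% in the control library, 2.11 points apart (1.801 to 2.41). Inside genes the same distances gave 0.591, 0.279, 0.605, 0.891 and 0.914 points. Leaving out members with 7 or more listed CpGs within 100 bp, the value at 100000 bp or more between genes was 1.85 points (1.52 to 2.19) and that under 1000 bp 0.532 points.

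CpG density separated inside from between most clearly. With 11 or more listed CpGs within 100 bp, the 2330 members between genes averaged 81.7% in the fasted and 77.4% in the control library, a difference of 4.35 points (3.78 to 4.93). The 4025 equally dense members inside genes averaged 76.3% in the fasted and 75.5% in the control library, a difference of 0.785 points (0.323 to 1.25). The inside minus between value of these dense members was -3.57 points (-4.30 to -2.83). Between genes, dense members exceeded less dense members by 3.31 points (2.73 to 3.89). At 7 to 10 listed CpGs the difference between genes was 1.81 points, and below that it ran from 0.718 to 1.05 points. The limit of 11 was chosen after values by density had been seen.

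**Figure D4:**
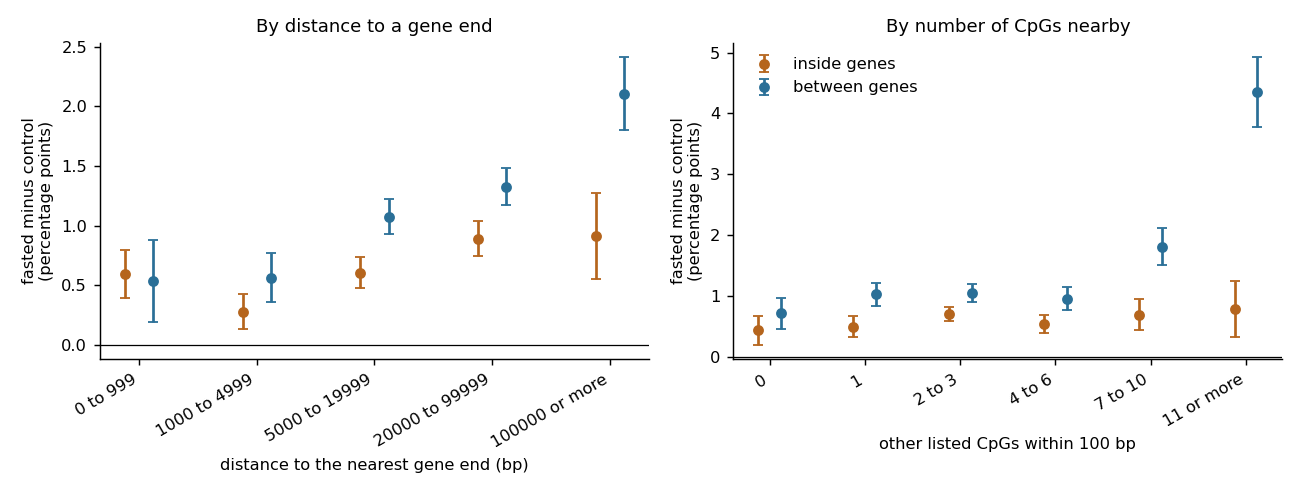
Mean fasted minus control difference (percentage points) of high level CpG cytosines by distance to the nearest gene end (left, bp) and by number of other listed CpGs within 100 bp (right), inside and between genes, with 95% counting intervals. The value between genes reaches 2.11 points at 100000 bp or more and 4.35 points with 11 or more listed CpGs.

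The dense members between genes spread over 908 windows of 1000 bp, with at most 21 in a window. The mean difference was above 0 in 554 of these windows and below 0 in 349, with a median of 3.34 points. Of 117 windows with 5 or more such members, 86 were higher and 31 lower in the fasted library, and they ran from -19.4 to 36.3 points. All 19 autosomes were positive, from 0.490 points on chromosome 15 to 7.74 points on chromosome 5. Dense members inside genes were positive on 14 of 19. On the other strand, 803 tested partners averaged 81.0% in the fasted and 77.1% in the control library, a difference of 3.91 points (3.004 to 4.82). How many of these partners were themselves members was not counted. Levels of 90% or more were reached by 27.9% of the dense members between genes in the fasted library and by 14.98% in the control library.

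Read depth moved with this result. The dense members between genes had a median of 16 reads in the fasted and 18 in the control library, and their summed reads had a fasted to control ratio of 0.909, against 1.04 over all members. With reads thinned to equal depth at each cytosine, the difference was 5.01 points. By smaller depth the difference was 4.43 points at 10 to 14 reads, 4.52 at 15 to 19, 4.68 at 20 to 29, 3.22 at 30 to 49 and 1.77 (-0.0101 to 3.55) in the 51 members with 50 or more. Dense cytosines between genes of other levels differed by 3.62 points at 40 to 60%, by 0.501 points at 90% or more and by 0.247 points at 10 to 40%.

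The 3 windows richest in dense members between genes differed by 3.68 to 5.74 points, with intervals that included 0, and none was called. Near Gm19378, a long noncoding RNA gene on chromosome 15, 25 members averaged 75.1% in the fasted and 71.4% in the control library. On chromosome 8, 57 bp from the noncoding RNA gene Gm33326, 20 members averaged 75.04% in the fasted and 70.6% in the control library. The 20 members near the pseudogene Gm7074 on chromosome 19 averaged 80.3% in the fasted and 74.5% in the control library. Of these, 15 were higher and 5 lower in the fasted library. All 5 lower ones were on the plus strand, and their strand partners were higher. These windows were chosen by member number after the density pattern had been seen.

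Few single members were called as different. Reads were compared by Fisher's exact test (two-sided), and a call needed a Benjamini-Hochberg adjusted p under 0.05 over all tested cytosines together with a gap of 25 points or more. There were 330 called members, 195 higher and 135 lower in the fasted library, or 0.121% of the members, against 0.082% of all tested cytosines (0.0448% higher and 0.0372% lower). An unadjusted p under 0.05 was reached by 15472 members, or 5.68%, and by 2.16% of all tested cytosines. In the other classes this share was 0.361% below 10%, 7.41% at 10 to 40%, 7.97% at 40 to 60% and 0.800% at 90% or more. Inside genes 107 were higher and 83 lower, and between genes 88 were higher and 52 lower. Where the fasted library was deeper, 130 were called higher and 50 lower, and where the control library was deeper, 60 and 77. At equal depth 5 were higher and 8 lower, so the direction of calls moved with depth. Without a test, 19785 members were at least 25 points higher and 16593 at least 25 points lower, together 13.4% of the members, against 4.13% of all tested cytosines. The latter include 853853 cytosines below 10%, whose differences had an SD of only 3.72 points, so these shares are not matched on level. Called members were read more deeply than the rest, with medians of 27 reads in the fasted and 24 in the control library. By class, the share called was 0.394% at 10 to 40% and 0.817% at 40 to 60%, with 0 calls at 90% or more. A pooled level of 90% or more leaves room for a gap of 25 points only where the libraries differ in depth. Among members the share called likewise fell from 0.449% at 60 to 65% to 0.00497% at 85 to 90%. The members' share lay between those of the neighbouring classes, but the call rule largely sets this order, so it is not a finding about the members.

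The calls depended on how reads were counted. All 4 counts, methylated and unmethylated reads in both libraries, were even at 176 of the 330 called members, or 53.3%, and at 14.4% of all members. The share of all-even members was 10.7% at a smaller depth of 10 to 14 reads and 47.3% at 30 to 49 reads. With each count halved and rounded down, as if reads had been counted in pairs, 8 members were called higher and 5 lower. Without the all-even cytosines, 93 were called higher and 52 lower. The mean difference was 0.849 points (0.788 to 0.910) without the all-even members and 0.588 points (0.451 to 0.725) in them.

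No called member stood alone. The nearest listed CpG lay at most 48 bp from any called member, with a median of 15 bp. Of the 59378 members with no listed CpG within less than 50 bp, 0 were called, which allows a share of up to 0.00505%, whereas all 330 calls fell among the other 212947. Among the isolated members 2098 had an unadjusted p under 0.05, or 3.53%, against 6.28% of the others. Isolated members with 20 or more reads in both libraries numbered 6489, of which 0 were called, against 202 of 39415 less isolated members of that depth. Calls were also rare at isolated cytosines of every level: 13 of 144204 were called, or 0.00902%, against 1302 of 1459092 less isolated ones, or 0.0892%. All-even counts moved with this: they were found at 6.996% of these isolated members and at 35.04% of the less isolated ones. The mean difference was 0.859 points (0.735 to 0.983) in isolated and 0.798 points (0.736 to 0.861) in less isolated members.

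Strand partners of called members moved less than the members that had been chosen. Of 216 called members with a tested partner, 170 had a partner that moved the same way, the median partner difference was 0.545 of the member's own, and 44 partners were called too. The largest changes were complete switches of the read counts between the libraries. Genotypes of these outbred mice were not examined, and the cause of the switches was not tested. A cytosine in Cacna1a, a calcium channel subunit gene (chr8:84569303, minus strand), was methylated in 100% of 45 fasted and 0% of 28 control reads, while the neighbour 34 bp away was at 100% in both. In Arhgap26 (chr18:39114292, minus strand), 100% of 46 fasted and 0% of 22 control reads were methylated, and the neighbour 4 bp away was at 95.7% in the fasted and 81.8% in the control library. The switched cytosine 23430 bp from the noncoding RNA gene Gm36243 (chr8:91187153, minus strand) stood at 100% of 42 fasted and 0% of 16 control reads, and its strand partner at 88.9% of 18 fasted and 0% of 14 control reads.

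The largest decreases were complete as well. In Btc, which encodes the growth factor betacellulin (chr5:91368304, plus strand), 0% of 24 fasted and 100% of 36 control reads were methylated. Its strand partner was at 0% of 28 fasted and 90.9% of 33 control reads, and the CpG 2 bp away at 100% in the fasted and 88.9% in the control library. The cytosine 1708 bp from Xpnpep3, an aminopeptidase gene (chr15:81459190, plus strand), stood at 0% of 16 fasted and 100% of 28 control reads, and its partner at 0% of 14 fasted and 100% of 11 control reads. In Atp10b, a lipid flippase gene (chr11:43020253, minus strand), 0% of 12 fasted and 100% of 19 control reads were methylated, and the neighbour 8 bp away was at 100% in both libraries. Adjusted p over all tested cytosines (Fisher's exact test) ran from 2.62e-15 at Cacna1a to 3.86e-05 at Atp10b. Where a neighbour on the same strand was tested, at 4 of these 6 cytosines, it stayed high in both libraries.

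Windows with several members were called more often than windows as a whole, on reads summed over cytosines that share molecules. A called window of 1000 bp had an adjusted p under 0.05 of Fisher's exact test over all 124884 windows, with mean cytosine levels 10 points or more apart. Of 9360 windows with 5 or more members, 362 were higher and 209 lower in the fasted library by this rule, or 6.10%. Over all windows the share was 2% (1.06% higher and 0.942% lower). These shares are not matched on level or on the number of cytosines and reads summed. All tested cytosines include 853853 below 10%, whose differences had an SD of only 3.72 points. Whether windows with several members were called more often at equal level and read number was not tested. With summed reads divided by the number of cytosines, which treats each window as 1 cytosine of average depth, 0 were called in either direction. The mean member levels of the 9360 windows were 78.4% in the fasted and 77.4% in the control library.

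In the windows with the largest increases, members moved in 1 direction and to different degrees. In Frmd4a, which encodes a scaffold protein of cell polarity (chromosome 2), all 10 members over 156 bp were higher, averaging 94.8% in the fasted (81.8 to 100%) and 51.5% in the control library (33.3 to 80%). Depth there was 11 to 13 fasted and 12 to 15 control reads. On chromosome 6, 79410 bp from Gm38917, 5 members averaged 95.1% in the fasted and 50.7% in the control library, and single control levels ran from 0% to 86.7%. The 5 members in Gm3973 on chromosome 12 averaged 91.3% in the fasted and 50.2% in the control library, with 24 to 48 fasted and 22 to 62 control reads. Fasted and control levels did not overlap in these 3 windows, which were chosen for their large differences, so this is a description. With the class from the strand partner, the difference in the Gm3973 window was 1.20 points (-6.32 to 8.71), against 41.1 points here, and that in the Frmd4a window 25.8 points, against 43.3 points. At equal depth the difference of the window near Gm38917 was 29.5 points, against 44.4 points. Adjusted p of the Fisher's exact test was 3.1e-06 for Frmd4a and 1.16e-21 for Gm3973.

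In the windows with the largest decreases, depth was between 10 and 26 reads in both libraries. In Rhbdf1, which encodes an inactive rhomboid protein (chromosome 11), 7 members averaged 42.9% in the fasted and 92.3% in the control library. Of these, 6 were lower, at 27.3 to 45.5% in the fasted library, and the last stood at 89.5% in the fasted and 73.7% in the control library. Near Gm31608 on chromosome 15, 3499 bp from the melanin-concentrating hormone receptor gene Mchr1, 5 members averaged 49.1% in the fasted and 87.7% in the control library. In Nceh1, which encodes a neutral cholesterol ester hydrolase (chromosome 3), all 5 members were lower, averaging 59.7% in the fasted (40 to 76.9%) and 96.9% in the control library (91.7 to 100%). The fasted and control ranges did not overlap at Gm31608 and Nceh1, windows likewise chosen for their large differences. At a minimum of 5 reads the difference near Gm31608 was -19.1 points, against -38.6 points, and with strands merged that in Rhbdf1 was -30.1 points, against -49.4 points.

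The window with most members was that of Tmem267 (chr13:119488001-119489000), with 52 members among 110 tested cytosines. They averaged 78.5% in the fasted and 64.3% in the control library, 51 of the 52 were higher in the fasted library, and the window was called. Depth there was 60 to 236 reads in the fasted and 26 to 151 reads in the control library. The window in Fignl2 on chromosome 15 had 47 members at 78.7% in the fasted and 72.5% in the control library, and that in Fbrsl1 on chromosome 5 had 40 members at 70.0% in the fasted and 65.3% in the control library. Neither was called, and at a minimum of 20 reads the difference was -3.30 points in the Fignl2 and -3.83 points in the Fbrsl1 window.

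**Figure D5:**
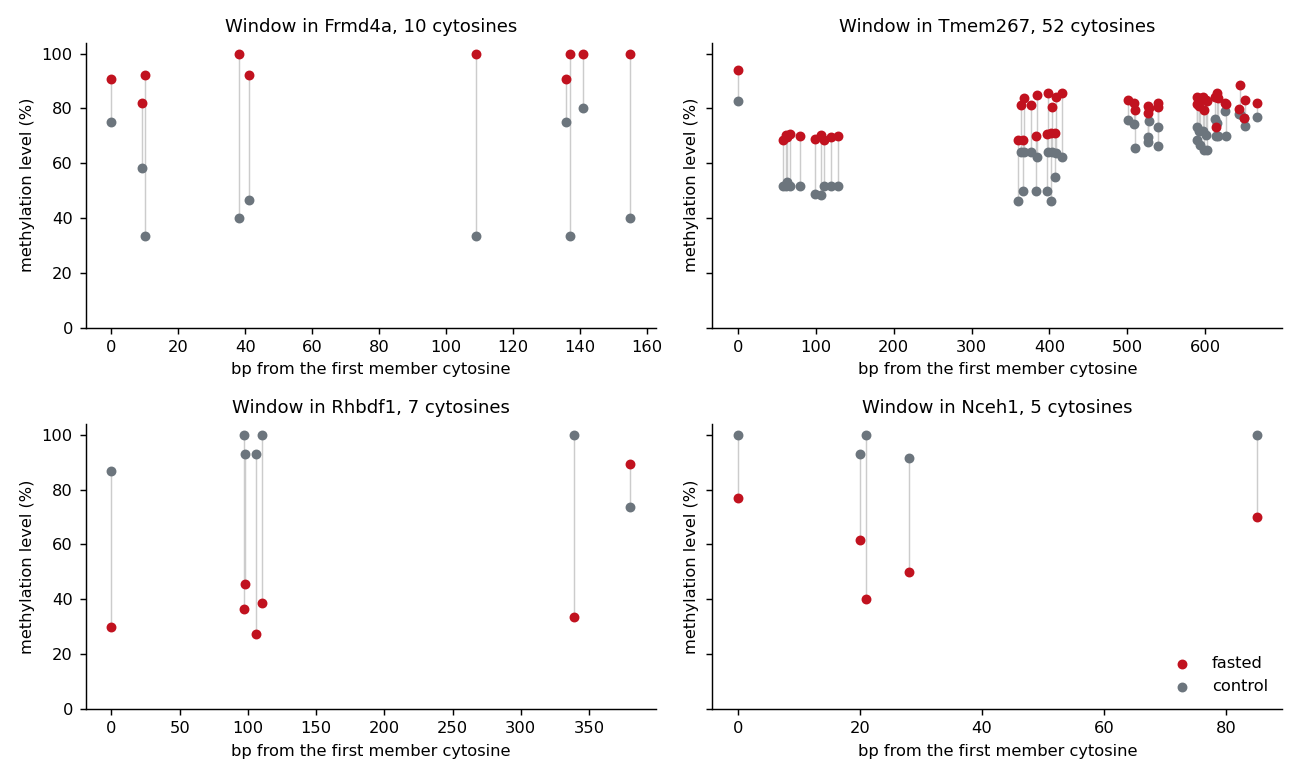
Methylation level (%) of each high level CpG cytosine in 4 windows of 1000 bp, fasted in red and control in grey, by distance (bp) from the first member, with a line joining the libraries at each cytosine. All 10 fasted points in Frmd4a and 51 of 52 in Tmem267 are above their control points, whereas 6 of 7 in Rhbdf1 and all 5 in Nceh1 are below.

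At the level of genes the differences were small. At least 1 member lay inside 13566 of 17203 protein-coding genes with a tested cytosine, and 20 or more inside 1764. Of these 1764, the mean member level was higher in the fasted library in 1035 and lower in 729. The median gene difference was 0.729 points (quartiles -1.60 and 3.14), and 80.7% of these genes were within 5 points. The protein-coding genes with most members are long. Gm37013, Gm38666 and Gm38667 on chromosome 18, whose intervals are nested and share their cytosines, held 376, 367 and 367. Gm37013 averaged 74.8% in the fasted and 75.8% in the control library. Cdh13, which encodes the adhesion protein T-cadherin, held 344 members at 78.7% in the fasted and 77.4% in the control library. Wwox, which encodes an oxidoreductase with WW domains, held 290 members at 80.3% in the fasted and 79.2% in the control library.

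The genes with the largest increases were chosen for this difference, so their values are a description. Arhgap40 averaged 82.1% in the fasted and 62.9% in the control library over 20 members, 14 of them higher. Phospho1, which encodes a phosphatase of bone mineralization, and Abi3 overlap and held the same number of members, 27, at 78.9% in the fasted and 62.2% in the control library. Eng, which encodes the TGF-beta co-receptor endoglin, averaged 86.1% in the fasted and 69.5% in the control library over 20 members. Ugt1a10, which encodes a glucuronosyltransferase, averaged 81.5% in the fasted and 66.3% in the control library over 21 members. With strands merged the difference was 10.04 points for Arhgap40, 8.60 points for Eng and 7.11 points for Ugt1a10, against 19.2, 16.7 and 15.2 points here, and at a minimum of 5 reads it was 8.10 points for Arhgap40. With the class from the strand partner it was 10.45 points for Abi3, against 16.8 points.

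Among the largest decreases, Niban3 stood at 61.5% in the fasted and 87.9% in the control library over 20 members, 19 of them lower. Zfp64, which encodes a zinc finger protein, averaged 68.6% in the fasted and 84.8% in the control library over 32 members. Cabp1, which encodes a calcium-binding protein, averaged 69.7% in the fasted and 85.3% in the control library over 24 members. Gm7247 averaged 73.9% in the fasted and 87.6% in the control library, and Kif5a, which encodes a kinesin motor, 70.0% in the fasted and 81.8% in the control library over 38 members. These 5 genes together held 2 called members, 1 in Niban3 and 1 in Gm7247, both lower. The difference of Gm7247, -13.7 points, was 2.42 points (-17.4 to 22.2) with the class from the strand partner. That of Kif5a, -11.7 points, was -2.95 points (-7.22 to 1.31) at a minimum of 5 reads and -3.19 points (-10.6 to 4.22) at a minimum of 20. Zfp64 differed by -9.17 points and Cabp1 by -6.94 points at a minimum of 5 reads, against -16.2 and -15.6 points here.

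Genes of liver metabolism under fasting were described through 9 lists of symbols, by the members inside their genes. The median member difference over all members was 0.851 points. Genes of fat oxidation and ketogenesis, pathways the liver uses without food, held 71 members in 11 genes. These members stood at 76.0% in the fasted and 71.6% in the control library (difference 4.40 points, 0.940 to 7.87, median 7.14). Of these, 39 lay in Bdh1, which encodes a ketone body dehydrogenase, at 74.1% in the fasted and 65.6% in the control library. The list's difference thus rested largely on this gene. The difference in Bdh1, 8.44 points, was 1.48 points (-5.91 to 8.87) at class limits of 65 and 85%. The 7 members in Ppara, the fatty acid sensing nuclear receptor, stood at 80.9% in the fasted and 74.6% in the control library. Over the list 5 genes were higher and 6 lower, and 0 members were called.

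Genes of lipogenesis, which store energy in the fed state, held 213 members in 16 genes, at 76.9% in the fasted and 80.8% in the control library (difference -3.89 points, -5.87 to -1.92, median -4.14). Of the 16 genes, 7 were higher and 9 lower, and 1 member was called, lower. The genes of this list with most members did not show the list's difference: 47 members in Acacb, an acetyl-CoA carboxylase gene, stood at 80.4% in the fasted and 79.2% in the control library, and 28 in Elovl6, a fatty acid elongase gene, at 78.8% in the fasted and 79.4% in the control library. Genes of the circadian clock held 185 members in 13 genes, at 81.2% in the fasted and 77.7% in the control library (difference 3.45 points, 1.33 to 5.58, median 3.03), with 8 genes higher and 5 lower. In Per3, a clock repressor gene, 25 members stood at 84.6% in the fasted and 77.4% in the control library, and 65 in Rora, a nuclear receptor gene, at 78.2% in the fasted and 76.3% in the control library.

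For the other 6 lists the interval of the difference included 0. The 168 members of gluconeogenesis genes stood at 78.7% in the fasted and 77.6% in the control library, with 65 in the coactivator gene Ppargc1a at 78.5% in the fasted and 75.8% in the control library and 22 in the pyruvate carboxylase gene Pcx at 75.1% in the fasted and 78.4% in the control library. The 287 members of insulin and glucagon signalling genes stood at 78.5% in the fasted and 78.6% in the control library. Of these, 110 lay in the receptor gene Igf1r, at 79.6% in the fasted and 80.1% in the control library, and 33 in the phosphodiesterase gene Pde4b, at 80.2% in the fasted and 77.7% in the control library. Enzymes and readers of methylation held 127 members at 81.1% in the fasted and 80.2% in the control library. Tet3, a dioxygenase gene of demethylation, stood at 77.4% in the fasted and 80.8% in the control library, and the methyltransferase gene Dnmt3a at 83.4% in the fasted and 79.6% in the control library.

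Hepatocyte transcription factor genes held 105 members at 78.5% in the fasted and 76.3% in the control library. Of these, 21 lay in the nuclear receptor gene Nr5a2, at 80.7% in the fasted and 76.9% in the control library. Genes of secreted and other hepatocyte proteins held 29 members in 5 genes, at 71.1% in the fasted and 74.1% in the control library, with 12 in the urea cycle gene Cps1 at 69.9% in the fasted and 75.2% in the control library and 9 in the transferrin gene Trf at 77.0% in the fasted and 70.2% in the control library. Imprinted genes held 227 members in 25 genes, at 78.0% in the fasted and 77.2% in the control library. Kcnq1 stood at 79.2% in the fasted and 79.8% in the control library and Gnas at 76.1% in the fasted and 81.3% in the control library. In these 6 lists 0 members were called.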

How the data were processed

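Read counts per CpG cytosine and strand, methylated and total, were taken from the deposited files, in which the authors also give a score per cytosine that is the methylated share on a larger scale. Levels here come from the deposited read counts, not from the score. Reads were handled with bcl2fastq 1.8.4 and Bismark 0.14.3 on mm10, per the submitters' processing notes. Trimming, duplicates, overlapping read mates and filters are not described in the sources used here, and they bear on read counts and on how often these are even.

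The fasted library held 51276705 and the control library 49253627 reads over cytosines, where a read counts for each cytosine it covers. Intervals cover counting error only, since these PCR reads carry no molecular identifiers and may repeat a molecule. Positions count from 1, strands were kept apart, and libraries were grouped by title. Gene positions and sequences come from RefSeq tables of GRCm38.p6, the build of mm10. In the promoter windows 213146 of 213146 tested cytosines lay on a CpG of the sequence. The gene table has no strand, so a gene end window covered 1000 bp outside and 500 bp inside an end. Exons, repeats and CpG islands were not analysed here. Of the listed symbols, 1 matched no gene. Promoter distances leave out chromosome 18, which has no window in the table used.

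Levels were compared as mean differences over cytosines, single cytosines and windows by Fisher's exact test (two-sided, scipy 1.17.1) on reads, adjusted after Benjamini and Hochberg, checked on simulated data. Windows needed 3 tested cytosines. Named are the 3 called members and the 3 called windows with at least 5 members of largest change each way, the 5 genes with most members, the 5 each way with largest change among genes with 20 members, and the 2 genes of each list with most members, of which 1 is not reported here. Windows with most members or most dense members, the 4 printed stretches and the split by density were added after their values were seen. The members and lists were chosen with earlier results of these data known. Alternatives were other read minimums and a cap, merged strands, halved counts, equal depth, other class definitions, weighting, other gene definitions, other windows and a higher difference for a call.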

Additional observations from a re-analysis of the deposited data

Results flagged for a closer look

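The X chromosome was left out of the set, and its 2980 cytosines of 60 to 90% are data outside the main measurement. They averaged 80.3% in the fasted and 79.1% in the control library, a difference of 1.1651 points (0.625 to 1.70).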

How the results depend on the processing

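No paired analysis was possible because each group had 1 library. The mean difference over high level CpGs stayed positive under 11 alternatives, from 0.688 (class from the strand partner) to 0.892 points (class limits 65 and 85%). Inside genes it ran from 0.548 to 0.663 points over 13 alternatives. Between genes it was 0.993 points at a minimum of 20 reads, 1.22 at class limits 65 and 85%, 0.885 with the class from the strand partner and 1.01 weighted by the smaller depth. The inside minus between value stayed negative under 13, and was -0.331 at a minimum of 20 reads and -0.319 with the strand partner. The difference of dense members between genes was 5.01 points at equal depth, 5.10 at class limits 65 and 85%, 3.64 with protein-coding genes only and 2.37 with at least 7 listed CpGs. Calls depended most on the processing. They numbered 456 higher and 335 lower with strands merged, 8 and 5 with counts halved, 81 and 49 at equal depth, and 93 and 52 without all-even cytosines, and 84 were lower at class limits 65 and 85%. Called windows numbered 337 higher and 185 lower at 500 bp, and 0 each way when summed reads were divided by the cytosine number. Of 49 named loci recomputed, 33 kept their sign in every alternative. Past a counting interval that excluded 0, the sign turned for the Fignl2 window at a minimum of 20 reads (-3.30 points) and for Gm7247 with the strand partner (2.42 points), and the cause was not tested. Alternatives for dense members, named loci and all-even cytosines were chosen after seeing the data. The main limit is 1 library a group: no alternative measures the spread between animals, and a median of 16 fasted and 15 control reads leaves single members imprecise.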
